A study of Homo sapiens with 9 samples.

Results

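The 37 genes of the human mitochondrial chromosome were followed through RNA sequencing of CAL27 cells, an established line from a squamous carcinoma of the tongue. They were taken as every identifier whose symbol begins with MT-, which gave 13 messenger, 2 ribosomal and 22 transfer RNA genes out of 78894 identifiers. Membership followed from the symbols alone, though earlier results of these data were known when this set was chosen. The study is about an enhancer in carcinoma of the head and neck and compares control cells with 3 CRISPR-edited groups. The groups were Control with 3 libraries and A2ko, A8ko and C9ko with 2 deposited files each. The cells of every group were CAL27 kept without treatment in DMEM with 10% serum at 37 °C. The labels name no target sequence and do not say whether a knockout group is 1 clone or a pool, so the edit itself could not be checked in any sample. The A2ko files hold identical values, and so do the A8ko files, so each pair counted as 1 library and 7 distinct libraries remained.

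Mitochondrial DNA is a small circle that is transcribed from both strands into long precursors. The precursors are cut at the transfer RNAs that lie between most of the other genes, and most of the freed messengers then receive a short poly(A) tail. The messengers encode core subunits of complexes I, III and IV of the respiratory chain and of the ATP synthase, and the ribosomal and transfer RNAs serve the translation of these messengers inside the organelle. By GENCODE release 29 on GRCh38, 12 of the 13 messengers, both ribosomal RNAs and 14 of the 22 transfer RNAs are products of the heavy strand. MT-ND6 and 8 transfer RNAs are products of the light strand. In the reference, 7 of the 13 messengers end in a complete stop codon and the length of 6 is no multiple of 3, and in such messengers the poly(A) tail is known to complete the stop codon.

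The libraries were made from polyA RNA, and mature transfer RNAs carry no such tail. A transfer RNA gene spans 59 to 75 bases here, a ribosomal RNA gene 954 to 1559 and a messenger 207 to 1812. The value of a transfer RNA row is therefore what the authors' software assigned to that short stretch. Whether those reads came from mature transfer RNA, from uncut precursors or from the opposite strand was not tested. How fully the polyA selection captured the ribosomal RNAs and each messenger, MT-ND6 among them, was not tested either. Values of those rows, and ratios made from them, are of the captured RNA. The labels name a strand-marking library method and do not say whether strand was used in counting, so rows of light-strand genes and transcripts of the heavy strand that pass over them cannot be told apart. TPM (transcripts per 1000000, a share of the library scaled by gene length) keeps no record of depth, so no counting interval can be given. Each distinct library listed 15556 to 16716 genes at 1 TPM or more. All 8 keratinocyte markers were above 1 TPM in every library. Their summed level was 15084 to 16252 TPM in Control, 6405 in A2ko, 7563 in A8ko and 9680 to 9877 in C9ko. Most of the Control sum came from KRT5 and KRT14, which were lower in every knockout library. In C9ko the list did not fall as a whole. CDH1, EPCAM, SFN and TP63 lay above the Control range in both C9ko libraries, KRT5, KRT14 and DSG3 below it, and KRT17 within it. The median difference from Control over the list, as log2(TPM + 1), was 0.06 for C9ko, -0.59 for A2ko and -0.58 for A8ko. The fibroblast marker COL3A1 was listed at 0 in all 7, the leukocyte marker PTPRC was at 0.0232 TPM or less, and the endothelial marker PECAM1 was at 0.295 or less. Above 1 TPM in any library were 3 of 5 fibroblast, 1 of 4 leukocyte and 1 of 3 endothelial markers. The last was CDH5, at 3.21 to 4.27 TPM in Control and 21.9 to 29.9 in C9ko. The leukocyte marker was CD68, at 27.8 to 32.2 TPM in Control, with A2ko at 35.4, A8ko at 66.3 and the C9ko libraries at 14.1 and 14.3. What part these marker changes have in the results was not tested.

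The transfer RNA genes that carry the results below are shown from the reference chromosome, each 5′ to 3′ on its own strand, with the anticodon in capitals. First come 4 neighbours between MT-ND2 and MT-CO1 for asparagine, cysteine, tyrosine and alanine. They held most of the TPM of the transfer RNA rows and were all lower in C9ko.
MT-TN, chrM:5657-5729, minus strand: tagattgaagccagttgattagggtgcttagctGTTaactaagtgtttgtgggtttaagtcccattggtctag
MT-TC, chrM:5761-5826, minus strand: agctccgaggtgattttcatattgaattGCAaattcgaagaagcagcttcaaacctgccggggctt
MT-TY, chrM:5826-5891, minus strand: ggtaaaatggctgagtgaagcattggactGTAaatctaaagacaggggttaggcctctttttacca
MT-TA, chrM:5587-5655, minus strand: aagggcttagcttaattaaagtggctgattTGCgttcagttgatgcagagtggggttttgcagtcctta
Next are those for phenylalanine and valine, which flank MT-RNR1 and had the largest differences in C9ko, and that for histidine, the member with the smallest adjusted p when all knockouts were compared with Control.
MT-TF, chrM:577-647, plus strand: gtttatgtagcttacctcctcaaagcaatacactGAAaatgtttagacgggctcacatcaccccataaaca
MT-TV, chrM:1602-1670, plus strand: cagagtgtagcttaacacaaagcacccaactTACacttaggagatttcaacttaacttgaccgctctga
MT-TH, chrM:12138-12206, plus strand: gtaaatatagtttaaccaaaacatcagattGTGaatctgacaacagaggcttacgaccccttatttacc
The last pair is that for the serine UCN codons and that for the leucine UUR codons. Both are abundant rows, of which the first did not pass the test in C9ko and the second passed it narrowly.
MT-TS1, chrM:7446-7514, minus strand: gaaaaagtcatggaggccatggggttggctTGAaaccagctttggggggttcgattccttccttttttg
MT-TL1, chrM:3230-3304, plus strand: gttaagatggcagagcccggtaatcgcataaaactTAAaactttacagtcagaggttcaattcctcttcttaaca
Some neighbouring rows share bases. MT-TC and MT-TY overlap by 1 base, and MT-TI and MT-TQ by 3 bases on opposite strands. MT-ATP8 and MT-ATP6 are read from a shared messenger in different frames and overlap by 46 bases at chrM:8527-8572, where the capitals mark the start codon of MT-ATP6 and the stop codon of MT-ATP8.
MT-ATP8 and MT-ATP6 overlap: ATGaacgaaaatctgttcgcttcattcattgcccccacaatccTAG
MT-ND4L and MT-ND4 overlap by 7 bases. How reads in shared bases were divided is not given in the sources used here, so the separate values of these partners are uncertain.

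The share of all TPM in mitochondrial genes was 23.1%, 26.9% and 23.5% in Control, with A2ko at 25.2%, A8ko at 20.6% and the C9ko libraries at 20.2% and 17.9%. Both C9ko libraries and A8ko lay below every Control library, and A2ko lay within their range. The C9ko mean was 5.43 percentage points below the Control mean of 24.5% ± 2.11 (SD, n = 3), with a two-sided exact permutation p of 0.2, the smallest that 3 against 2 libraries can give. With 1 value per knockout group, the knockouts were 2.85 points below Control (two-sided exact permutation p = 0.3, adjusted over 4 measures p = 0.4), and 3 against 3 cannot go below 0.1. That difference was -1.64 points without Control 2, -1.56 without C9ko and -4.64 without A2ko. In bulk RNA, fewer cells with a transcript and less of it per cell cannot be told apart. The share also moves with all nuclear RNA in the same library.

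Most of that share was messenger RNA, and the 3 classes moved unequally. The messengers summed to 207047, 245055 and 211204 TPM in Control, with A2ko at 227484, A8ko at 187486 and the C9ko libraries at 188528 and 166201. The ribosomal pair summed to 4649, 4715 and 4985 TPM in Control, with A2ko at 7874, A8ko at 4548 and the C9ko libraries at 3055 and 2834. The transfer rows summed to 19061, 19428 and 18822 TPM in Control, with A2ko at 17073, A8ko at 14439.6 and the C9ko libraries at 10890.3 and 9818. The 3 Control sums of the transfer rows lay close together, at 19104 ± 305 TPM (SD, n = 3), and every knockout library was below them. For the ribosomal rows A2ko stood above every Control library and C9ko below, and A8ko lay just under the lowest of them.

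**Figure D1:**
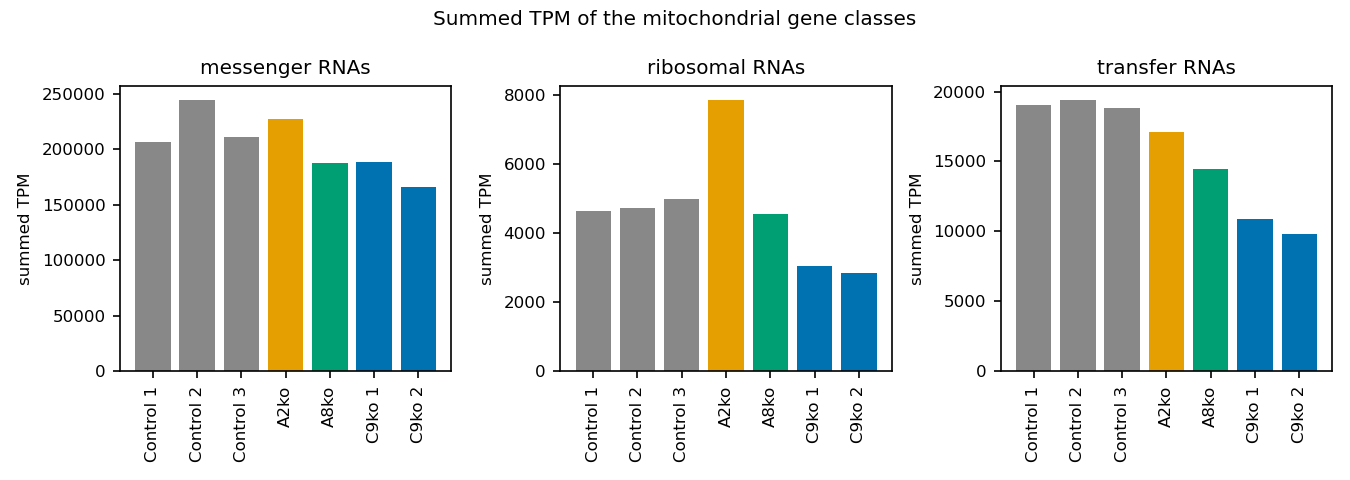
Summed TPM of the mitochondrial messenger, ribosomal and transfer RNA rows, 1 bar per distinct library on linear axes that start at 0 and differ between panels. Transfer RNA sums were 18822 to 19428 in Control, with A2ko at 17073, A8ko at 14440 and the C9ko libraries at 10890 and 9818.

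The order of the messengers was nearly the same in all libraries. Complex IV, cytochrome c oxidase, led with MT-CO3, its most abundant row in each of the 7 libraries, and the complex I messengers MT-ND1, MT-ND5 and MT-ND6 held the last places in that order in each. In Control, MT-CO3 was at 39264 ± 3548 TPM, MT-CO2 at 28436 ± 2765 and MT-CO1 at 28129 ± 1384 (SD, n = 3). MT-ND6 was at 1059 ± 126 TPM (SD, n = 3). MT-CO3 and MT-CO2 did not overlap over the Control libraries, and neither did MT-ND1, MT-ND5 and MT-ND6. The Control ranges overlapped for the neighbours MT-CO2 and MT-CO1, MT-CO1 and MT-ND4, MT-CYB and MT-ND4L, MT-ATP8 and MT-ND2, and MT-ND2 and MT-ND3. As shares of the messenger TPM, complex I messengers took 31.3% to 35.4% in Control and 29.5% to 32.9% in the knockouts, and those of complex IV 42.6% to 45.1% and 43.9% to 47.6%. MT-CYB, the only messenger for complex III, took 7.66% to 8.38% and 6.75% to 8.03%. The ATP synthase pair took 14.4% to 16.5% and 15.2% to 16.6%. All 4 pairs of ranges overlapped.

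**Figure D2:**
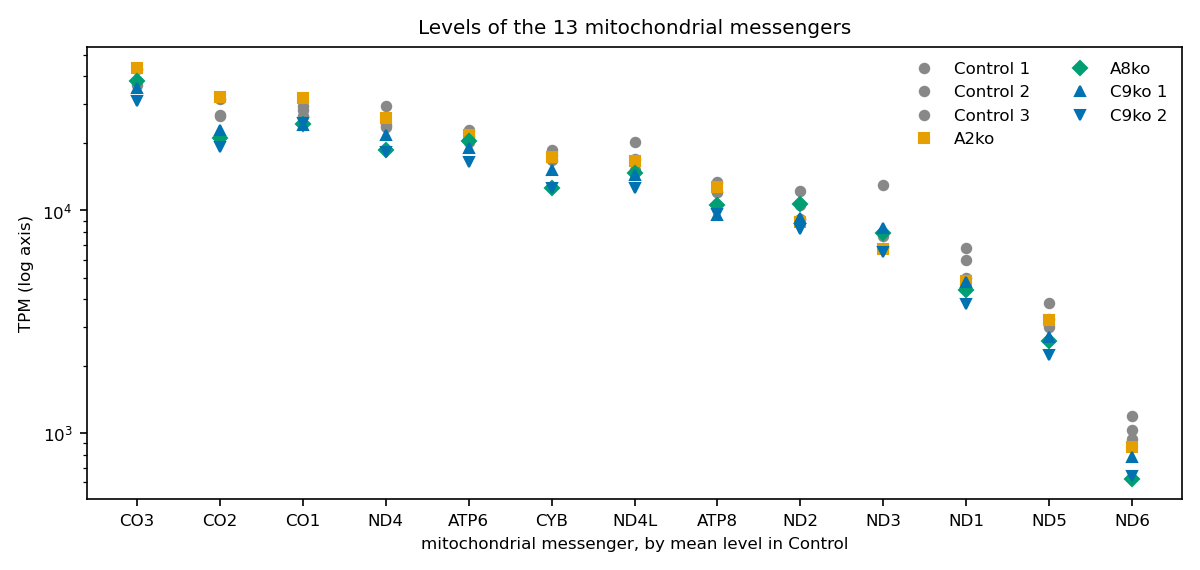
TPM of the 13 mitochondrial messengers on a log axis, ordered by mean level in Control, with 1 point per distinct library. MT-CO3 is highest and MT-ND6 lowest in each of the 7 libraries.

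C9ko was the only knockout with 2 distinct libraries and was tested against Control with limma over 17100 genes on the log2(TPM + 1) scale. Nearly all transfer RNA rows and both ribosomal RNAs fell, and most messengers were lower without passing the test. All 37 genes had a negative difference, as did 5988 of the 17100 genes tested. Of the 37, 25 were called lower at an adjusted p under 0.05, with 0 called higher. Those 25 were 20 of 22 transfer RNAs, 2 of 2 ribosomal RNAs and 3 of 13 messengers. Over all genes tested 29.5% were called, 7.42% lower and 22% higher. Of the 37, 22 were both called and at least 0.5 log2 units lower, against 5.01% of all genes tested. Both C9ko libraries were below every Control library for 34 of 37, against 16.4% of all genes tested. The median difference was -1.03 for the transfer RNAs, -0.72 for the ribosomal RNAs and -0.36 for the messengers, against 0.11 for all genes tested. As a median percentage of the Control mean, the TPM in C9ko was 49.2% for transfer RNAs, 60.7% for ribosomal RNAs and 77.8% for messengers.

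**Figure D3:**
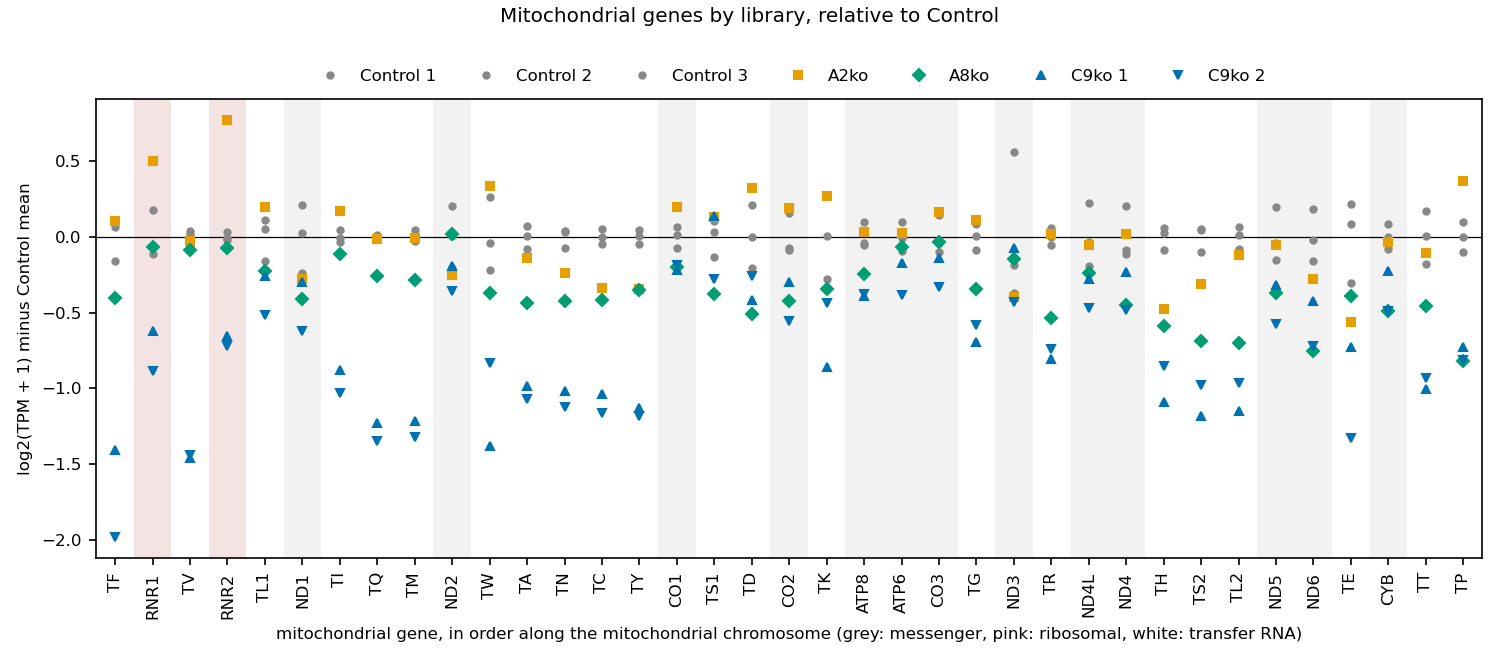
Difference of log2(TPM + 1) from the Control mean for each of the 37 mitochondrial genes, in order along the chromosome, with 1 point per distinct library. The transfer RNA MT-TF has the lowest fitted C9ko difference, at -1.69, and both ribosomal RNAs are above Control in A2ko and below it in C9ko.

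The largest differences were at the transfer RNAs on either side of the small ribosomal RNA. MT-TF, the phenylalanine transfer RNA, was at 108, 91.6 and 109.9 TPM in Control, with A2ko at 110.3, A8ko at 77.3 and the C9ko libraries at 38.1 and 25.3. Both C9ko libraries were far below the rest, and the fitted difference was -1.69 (SE 0.17, limma adjusted p 5.66e-04). MT-TV, the valine transfer RNA, was at 143, 135 and 145 TPM in Control, with A2ko at 138, A8ko at 133 and the C9ko libraries at 50.6 and 51.2. A2ko lay within the Control range, A8ko just below it and C9ko far below, a difference of -1.45 (SE 0.06, limma adjusted p 2.17e-05).

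Between MT-ND2 and MT-CO1 lie 5 transfer RNA genes, of which the tryptophan one is read from the other strand. MT-TN was at 3520.1, 3502 and 3259 TPM in Control, with A2ko at 2898, A8ko at 2556 and the C9ko libraries at 1691 and 1570.1. MT-TC was at 3832, 3973 and 3719 TPM in Control, with A2ko at 3041, A8ko at 2869.6 and the C9ko libraries at 1869 and 1714. MT-TY was at 3953, 4059 and 3821 TPM in Control, with A2ko at 3106, A8ko at 3084 and the C9ko libraries at 1799.95 and 1739. In each of these the order was the same, with Control above A2ko, A2ko above A8ko and A8ko above both C9ko libraries. MT-TA was at 1904, 1818 and 1715 TPM in Control, with A2ko at 1640.03, A8ko at 1335 and the C9ko libraries at 916 and 863, in the same order. The C9ko differences were -1.07 for MT-TN, -1.10 for MT-TC, -1.16 for MT-TY and -1.03 for MT-TA, with limma adjusted p from 1.24e-04 to 2.05e-04. MT-TW, a low row at 19.5 ± 3.49 TPM in Control (SD, n = 3), was at 6.83 and 10.4 in C9ko, a difference of -1.11 (SE 0.19, limma adjusted p 0.00603). The share of the transfer TPM in MT-TN, MT-TC, MT-TY and MT-TA was 69.3%, 68.7% and 66.5% in Control, with A2ko at 62.6%, A8ko at 68.2% and the C9ko libraries at 57.6% and 60.0%. C9ko lay below every Control library in this share too, and A2ko did so by less.

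Other groups of neighbours gave similar falls elsewhere on the chromosome. Between MT-ND1 and MT-ND2, the transfer RNAs for isoleucine, glutamine and methionine had differences of -0.96, -1.29 and -1.27. MT-TQ was at 121, 121 and 119 TPM in Control and at 50.6 and 46.7 in C9ko, with a difference of -1.29 (SE 0.06, limma adjusted p 3.48e-05). Between MT-ND4 and MT-ND5, those for histidine, the serine AGY codons and the leucine CUN codons had -0.97, -1.08 and -1.06. MT-TH was at 264, 285 and 291 TPM in Control, with A2ko at 201, A8ko at 186 and the C9ko libraries at 131 and 154, with all 4 knockout libraries below Control. On either side of MT-CYB, glutamate, threonine and proline had -1.03, -0.97 and -0.77. MT-TE spread widely in Control, at 235, 308 and 337 TPM, and in C9ko, at 175 and 115, and its adjusted p was 0.0114 (limma).

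Of the 5 transfer RNAs from MT-CO1 to MT-ND4L, 2 did not pass the test. MT-TS1, the serine UCN transfer RNA that follows MT-CO1 on the opposite strand, was at 1985, 1773 and 2088 TPM in Control, with A2ko at 2131, A8ko at 1495 and the C9ko libraries at 2135 and 1599. The C9ko libraries lay on either side of the Control range, and the difference of -0.07 (SE 0.14, limma adjusted p 0.721) was not called. MT-TD, for aspartate, was at 52.4, 38.9 and 45.0 TPM in Control and 33.4 and 37.6 in C9ko and was not called either, at -0.34 (SE 0.13, limma adjusted p 0.0881). MT-TK, MT-TG and MT-TR, for lysine, glycine and arginine, were called lower, with -0.65, -0.64 and -0.77 and limma adjusted p of 0.0378, 0.00126 and 2.49e-04. MT-TL1, which follows MT-RNR2 and precedes MT-ND1, was at 921, 1113 and 1065 TPM in Control, with A2ko at 1182, A8ko at 879.6 and the C9ko libraries at 861 and 721, a difference of -0.39 (SE 0.11, limma adjusted p 0.0443) close to the threshold. With MT-TS1 and MT-TL1 added to the 4 genes between MT-ND2 and MT-CO1, the share of the transfer TPM was 83.2% to 84.6% in Control and 85.1% and 83.6% in C9ko, so these 6 rows together kept their part of the class. The 8 transfer RNAs not given library by library, MT-TI, MT-TM, MT-TS2, MT-TL2, MT-TT, MT-TK, MT-TG and MT-TR, spanned 36.6 to 471 TPM in Control and 24.2 to 295 in C9ko, and in each of them both C9ko libraries were below Control. The median difference was -0.97 over the 14 heavy-strand transfer RNAs, 13 of them called, and -1.05 over the 8 light-strand ones, 7 of them called.

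Both ribosomal RNAs of the organelle, as captured from polyA RNA, fell in C9ko. MT-RNR2, of the large subunit, was at 3793, 3829 and 3936 TPM in Control, with A2ko at 6564, A8ko at 3662 and the C9ko libraries at 2452 and 2333. MT-RNR1, of the small subunit, was at 857, 886 and 1049 TPM in Control, with A2ko at 1309.99, A8ko at 886 and the C9ko libraries at 603 and 502. A2ko was the highest library and the C9ko pair the lowest for both. The fitted C9ko differences were -0.69 (SE 0.08, limma adjusted p 0.00113) for MT-RNR2 and -0.75 (SE 0.12, limma adjusted p 0.0041) for MT-RNR1.

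Among the messengers, 3 fell past the threshold. MT-ND6, a complex I subunit and the only light-strand messenger, was at 945, 1195 and 1038 TPM in Control, with A2ko at 869, A8ko at 625 and the C9ko libraries at 785 and 638. Every knockout library was below every Control library, and the C9ko difference was -0.57 (SE 0.13, limma adjusted p 0.0164). MT-ND5, another complex I subunit, was at 3007, 3832 and 3259.7 TPM in Control, with A2ko at 3227, A8ko at 2594 and the C9ko libraries at 2689 and 2246, with both C9ko libraries below Control and a difference of -0.45 (SE 0.13, limma adjusted p 0.0451). MT-ATP8, an ATP synthase subunit, was at 12046, 12158 and 13397 TPM in Control, with A2ko at 12779, A8ko at 10571 and the C9ko libraries at 9566 and 9617, with C9ko and A8ko below Control and a difference of -0.38 (SE 0.11, limma adjusted p 0.0356). No messenger kept its call under every alternative, and without Control 3 or without C9ko 2 none of the 13 was called. Without Control 2 or without C9ko 1, 1 was.

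The remaining 10 messengers had C9ko differences from -0.46 to -0.20 that did not pass the test. For complex I, MT-ND1 was at 4981, 6790 and 5978 TPM in Control, with A2ko at 4828, A8ko at 4413 and the C9ko libraries at 4763 and 3817. All 4 knockout libraries were under the lowest Control library. MT-ND2 was at 9157, 12193 and 10594 TPM in Control, with A2ko at 8869, A8ko at 10731 and the C9ko libraries at 9237 and 8269. The higher C9ko library lay within the Control range. MT-ND4 was at 23666, 29415 and 24103 TPM in Control, with A2ko at 25905, A8ko at 18758 and the C9ko libraries at 21762 and 18282, with A8ko and C9ko below Control. MT-ND4L was at 15254, 20375 and 17021 TPM in Control and 14390.01 and 12603 in C9ko. MT-ND3 was at 7715, 12961 and 6809 TPM in Control, with A2ko at 6693, A8ko at 7962 and the C9ko libraries at 8349.6 and 6519.8. Control 2 was well above the other libraries, and without it the C9ko difference was 0.0257 rather than -0.25.

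MT-CYB, the complex III subunit, was at 16775, 18775 and 17704 TPM in Control, with A2ko at 17352, A8ko at 12647 and the C9ko libraries at 15136 and 12599.5. A8ko and both C9ko libraries were below Control, with a C9ko difference of -0.36 (SE 0.13, limma adjusted p 0.08). Complex IV has 3 messengers here, for its largest subunits. MT-CO1 was at 28291, 29424 and 26670.1 TPM in Control, with A2ko at 32162, A8ko at 24464 and the C9ko libraries at 24184 and 24667. MT-CO2 was at 26969.7, 31624 and 26713 TPM in Control, with A2ko at 32277, A8ko at 21111 and the C9ko libraries at 23036 and 19304. MT-CO3 was at 38022, 43266 and 36504 TPM in Control, with A2ko at 43870.1, A8ko at 38269 and the C9ko libraries at 35556 and 31119.7. In each of the 3 A2ko was above every Control library and C9ko below every one, and the C9ko differences were -0.20, -0.43 and -0.24 with limma adjusted p of 0.259, 0.0731 and 0.278. MT-ATP6, of the ATP synthase, was at 20217, 23047 and 21414 TPM in Control and 19074 and 16518 in C9ko, a difference of -0.28 that was not called.

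These differences depend on what the library is scaled to. When libraries were scaled by the median of ratios, the median of all genes tested moved from 0.11 to -0.01 and that of the transfer RNAs from -1.03 to -1.16, with 28.1% of all genes called and 12.8% called lower. When each library was scaled so that its 13 messenger rows had the same sum, a setting chosen after the data were seen, 16 transfer RNAs were called lower, with a median of -0.71. No ribosomal RNA and no messenger was called then, and the median of all genes was 0.39, with 3.81% called lower. Equal messenger sums hold the messenger differences near 0 by design.

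The fall of transfer RNA rows was set beside that of other short rows. The 161 tested nuclear genes under 100 bases had a median C9ko difference of -0.02 with quartiles of -0.30 and 0.32, and 8.07% of them were called lower. Among nuclear classes of small RNA, the medians were 0.11 over 37 snRNA genes, -0.05 over 79 snoRNA genes and 0.02 over 116 miRNA genes. The median of short nuclear rows was thus close to 0. The low part of their distribution reached as far down as the transfer RNAs, with 13% at -0.5 or below. These nuclear rows were not matched to the transfer RNAs by level, and the log2(TPM + 1) scale understates changes of low genes. How the authors' software treated short genes is not given. What part gene length has in the fall was not tested.

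**Figure D4:**
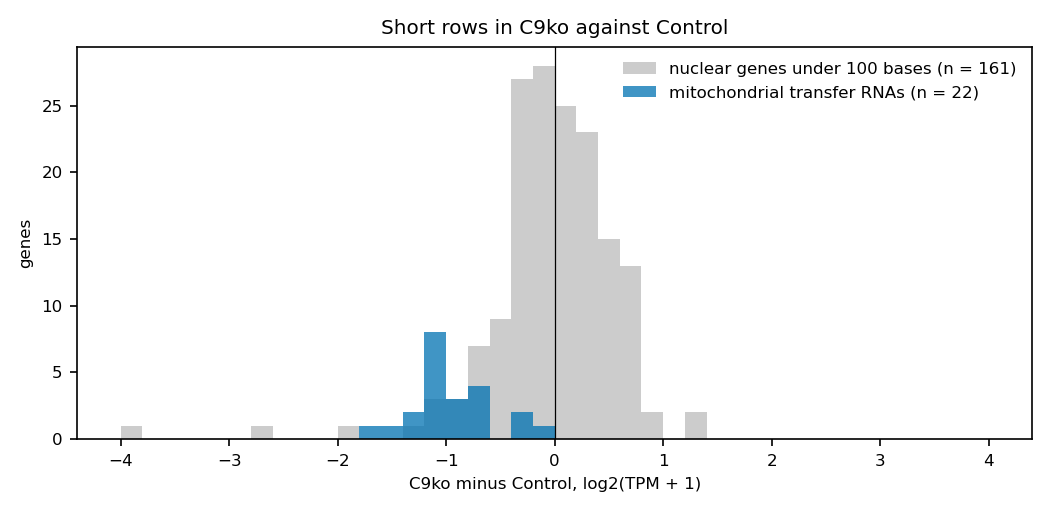
Number of genes by difference of log2(TPM + 1) between C9ko and Control, for the 161 nuclear genes under 100 bases (grey) and the 22 mitochondrial transfer RNAs (blue). The nuclear genes centre on a median of -0.02 and the transfer RNAs on -1.03.

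A8ko has 1 distinct library, so its values have no replicate check and no p. Genes were counted when they lay outside the Control range and at least 0.25 log2 units from the Control mean. By that count 25 of the 37 were lower and 0 higher, against 16.9% of all genes tested lower and 27.4% higher. The 25 were 19 transfer RNAs and 6 messengers, and neither ribosomal RNA was among them. All 22 transfer RNAs lay below every Control library, which 26.4% of all genes tested did. The median TPM was 75.1% of the Control mean for transfer RNAs, 84.1% for messengers and 95.2% for ribosomal RNAs. With a difference of at least 0.5 the count was 7, and with messenger rows scaled equal it was 8, of which 7 were lower and 1 higher.

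The member furthest below Control in A8ko was MT-TP. MT-TP, the proline transfer RNA, was at 475, 547 and 510.2 TPM in Control, with A2ko at 659, A8ko at 288 and the C9ko libraries at 307 and 289. A8ko and C9ko gave near values there, and A2ko was above Control. MT-ND6 differed by -0.75, MT-TL2 by -0.70, MT-TS2 by -0.69 and MT-TH by -0.59. MT-TF and MT-TV, the lowest in C9ko, differed by -0.40 and -0.08. The ribosomal RNAs MT-RNR1 and MT-RNR2 differed by -0.06 and -0.07, within or just under the Control range. MT-CYB at -0.49, MT-ND4 at -0.45, MT-CO2 at -0.43, MT-ND1 at -0.41 and MT-ND5 at -0.37 were the other messengers counted. A difference between A8ko and C9ko was not tested.

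A2ko, also 1 distinct library without a replicate check, differed from Control in both directions. Higher by the same count were 5 of the 37, which were both ribosomal RNAs and the transfer RNAs MT-TP, MT-TW and MT-TD. Lower were 9, of which 5 were transfer RNAs and 4 messengers. Over all genes tested 34.8% were higher and 15.2% lower by this count. Whatever the size of the difference, 13 of the 37 lay above every Control library and 12 below, against 50.4% and 26.3% of all genes tested. After scaling by the median of ratios 2 were higher and 11 lower, with nuclear rows rescaled 6 and 7, and with messenger rows scaled equal 3 and 10. With a difference of at least 0.5 only 2 remained, 1 in each direction.

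MT-RNR2 reached 170.4% of its Control mean in A2ko and MT-RNR1 140.8%, differences of 0.77 and 0.50. Other RNAs that mark library composition were higher in the same library too. Of 10 such rows tested, 6 were higher by that count and 0 lower, with a median of 0.59, against 34.8% of all genes tested higher. The nuclear-retained RNA NEAT1 was at 1977 TPM against 939 to 1034 in Control. The cytosolic ribosomal row RNA5-8SN1 was at 4.99 TPM against 2.01 to 3.41. What part these rows have in the result for MT-RNR1 and MT-RNR2 was not tested. The lower transfer RNAs were MT-TE at -0.56, MT-TH at -0.48, MT-TY at -0.34, MT-TC at -0.34 and MT-TS2 at -0.31. The lower messengers all encode complex I subunits. They were MT-ND3 at -0.39, MT-ND1 at -0.28, MT-ND6 at -0.28 and MT-ND2 at -0.25. The complex IV messengers lay above the Control range, with MT-CO1 at 0.19, MT-CO2 at 0.19 and MT-CO3 at 0.16, under the difference of 0.25 that the count required.

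To ask what the knockouts share, each group was taken as 1 value and 3 such values were tested against the 3 Control libraries. No mitochondrial gene passed limma's adjusted threshold, while 1.03% of all genes tested did. At an unadjusted p under 0.05, 9 of the 37 passed, all lower, 8 transfer RNAs and MT-ND6, against 3.8% of all genes tested. Counted in the fit that averages the knockouts over all 4 groups, which leaves out the spread between knockout groups, 18 were called, and without A2ko 9 were. MT-TH had the smallest adjusted p, with a difference of -0.68 (SE 0.14, limma adjusted p 0.0847) and lower values in 4 of 4 knockout libraries. MT-TS2 followed with -0.69 (SE 0.19, limma adjusted p 0.158), MT-ND6 with -0.53 (SE 0.16, limma adjusted p 0.182) and MT-TE with -0.66 (SE 0.20, limma adjusted p 0.191).

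Every knockout library lay below every Control library for 10 of the 37, and above for 0, against 4.61% and 17% of all genes tested. The 10 were the complex I messengers MT-ND1 and MT-ND6 and the transfer RNAs MT-TA, MT-TN, MT-TC, MT-TY, MT-TH, MT-TS2, MT-TL2 and MT-TE. MT-ND6 and 5 of these transfer RNAs are light-strand products. The share of the messenger TPM in MT-ND6 was 0.456%, 0.488% and 0.491% in Control, with A2ko at 0.382%, A8ko at 0.333% and the C9ko libraries at 0.416% and 0.384%, a ratio that does not depend on nuclear RNA. The groups did not overlap, and the difference of -0.106 percentage points had a two-sided exact permutation p of 0.1, the smallest possible, and 0.2 after adjustment over 4 measures.

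Ratios among the classes were compared in the same way. The log2 ratio of transfer to messenger TPM, a ratio chosen after the data were seen, was -3.44, -3.66 and -3.49 in Control, with A2ko at -3.74, A8ko at -3.70 and the C9ko libraries at -4.11 and -4.08. All knockout libraries were lower, with a mean difference of -0.32 (two-sided exact permutation p = 0.1, adjusted p = 0.2), and the gap between Control 2 and A8ko was small. Without C9ko the mean difference was -0.19. For C9ko alone the difference was -0.57 (two-sided exact permutation p = 0.2, the smallest possible). The log2 ratio of ribosomal to messenger TPM was -5.48, -5.70 and -5.40 in Control, with A2ko at -4.85, A8ko at -5.37 and the C9ko libraries at -5.95 and -5.87. A2ko was above and C9ko below Control, and the mean difference of 0.15 had a two-sided exact permutation p of 0.7 (adjusted p = 0.7). Without A2ko it was -0.11.

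Few of the nuclear genes that make, process and use mitochondrial RNA fell in C9ko. On the list for transcription and replication of mitochondrial DNA, 18 of 18 genes were tested, 6 were called higher and 1 lower, and the median difference was 0.18. On the list for processing and decay of mitochondrial RNA, 27 were tested, 5 higher and 1 lower, with a median of 0.09. The 9 regulators of mitochondrial biogenesis had 2 higher and 1 lower and a median of 0.03, and the 14 translation factors had 2 higher and 0 lower and a median of -0.05. Over all genes tested 22% were called higher and 7.42% lower, with a median of 0.11, so these counts are within a few genes of the background. None of the listed genes was called in all knockouts against Control.

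The mitochondrial RNA polymerase itself, POLRMT, was at 23.0, 21.2 and 25.9 TPM in Control, with A2ko at 23.7, A8ko at 22.3 and the C9ko libraries at 23.2 and 22.8. All libraries overlapped, and the C9ko difference was -0.02 (SE 0.09, limma adjusted p 0.915). Its partners TFAM, which packs and activates mitochondrial DNA, and TFB2M, which opens the promoters, rose by small amounts of 0.27 and 0.32 (limma adjusted p 0.0294 and 0.0249). The nuclease MGME1 rose by 0.66, the DNA polymerase POLG by 0.32 and the helicase TWNK by 0.29 (limma adjusted p 0.0032, 0.0197 and 0.0203).

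LRPPRC and SLIRP, which form a complex that stabilises mitochondrial messengers, did not pass the test in C9ko, with -0.01 and -0.17 (limma adjusted p 0.948 and 0.182). SLIRP was at 145, 163 and 138 TPM in Control, with A2ko at 88.7, A8ko at 131 and the C9ko libraries at 136 and 128, so that A2ko was the lowest library. PDE12, which removes poly(A) tails from mitochondrial RNA, was at 5.85, 5.03 and 6.24 TPM in Control, with A2ko at 4.68, A8ko at 6.89 and the C9ko libraries at 11.9 and 12.1. Both C9ko libraries were above all others, a difference of 0.96 (SE 0.10, limma adjusted p 7.84e-04). FASTKD5, which acts on precursors without transfer RNA borders, rose by 0.59, the oligonucleotide exonuclease REXO2 rose by 0.38 and FASTKD1 fell by 0.38 (limma adjusted p 0.00336, 0.0445 and 0.00608). Among biogenesis regulators GABPB1 and PPRC1 rose by 0.64 and 0.46, and PPARGC1A, the coactivator PGC-1 alpha, fell by 0.40 (limma adjusted p 0.00827, 0.00469 and 0.0233). Of the translation factors MTRF1L and TSFM rose by 0.32 and 0.25 (limma adjusted p 0.0307 and 0.0292).

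The protein subunits that work beside the mitochondrial RNAs had calls in both directions. Of 79 mitochondrial ribosome genes 9 were called higher and 1 lower in C9ko, with a median of 0.06. The largest rises were MRPL33 at 0.85, MRPS25 at 0.78, MRPS24 at 0.76 and MRPS26 at 0.68 (limma adjusted p 4.77e-04, 0.0454, 5.11e-04 and 6.39e-04). Of 76 nuclear subunits of the respiratory chain and ATP synthase 4 were higher and 7 lower, with a median of -0.05. Over all genes tested the shares were 22% higher and 7.42% lower, with a median of 0.11, so the share of higher calls was under the background on both lists. UQCRB of complex III fell by 0.95 and SDHA of complex II by 0.59, whereas UQCRC1 of complex III rose by 0.73 and NDUFA12 of complex I by 0.53 (limma adjusted p 0.00223, 0.00156, 0.00143 and 0.00327). In A2ko 23 of the ribosome list and 22 of the respiratory list were lower by the count used for single libraries, with medians of -0.16 and -0.15, against 15.2% of all genes tested. MRPS24 shares its strand with the readthrough gene URGCP-MRPS24 and FASTKD5 with UBOX5, so their values are uncertain. MRPL33, TSFM, REXO2, SLIRP, POLG and GABPB1 also share bases with a gene on the same strand, so that their values are uncertain whether or not strand was used. MGME1, TWNK, LRPPRC, PPARGC1A, MRPS25, MTRF1L and UQCRB overlap genes on the other strand, from which they cannot be told apart if strand was not used. FASTKD1, PDE12, MRPS26, POLRMT, TFAM and TFB2M overlap no annotated gene.

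Chromosomes 3, 9 and 20 were looked at because earlier results of these data showed stretches of higher genes on them in C9ko, so the counts are no independent evidence, and other chromosomes were not counted. These chromosomes hold 7 of the 28 listed genes called higher in C9ko, or 25%, among them PDE12, MRPS25 and UQCRC1 on 3 and MGME1, FASTKD5 and MRPS26 on 20. They hold 20 of the 223 listed genes tested, or 8.97%, 0 of the 11 called lower, and 11.4% of all genes tested. The share of these chromosomes among all genes called higher in C9ko was not counted. The 25% can therefore not be read as particular to the listed genes. What part position has in these rises was not tested.

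**Figure D5:**
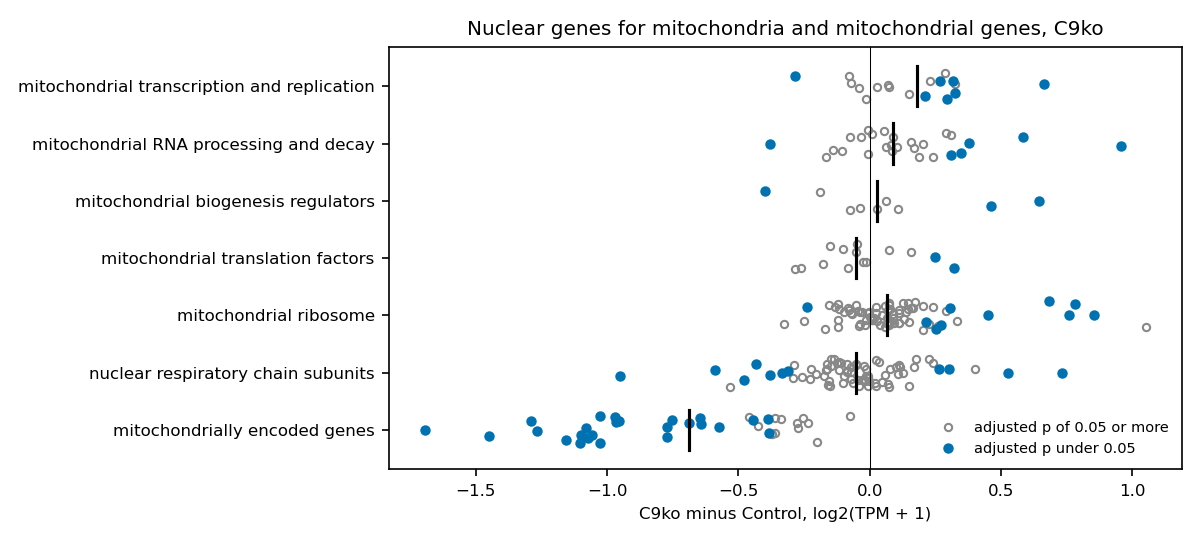
Difference of log2(TPM + 1) between C9ko and Control for tested nuclear genes on 6 lists and for the 37 mitochondrial genes, 1 point per gene, filled where limma's adjusted p was under 0.05, with a vertical bar at each median. List medians lie between -0.05 and 0.18, and that of the mitochondrial genes at -0.69.

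Nuclear copies of mitochondrial genes can take reads of the originals. Of 404 such copies found by symbol, 338 were listed at 0 in every library and 12 were tested. They held 0.339%, 0.437% and 0.345% of the TPM in Control, with A2ko at 0.325%, A8ko at 0.329% and the C9ko libraries at 0.331% and 0.296%, which is little beside the mitochondrial genes. MTATP6P1, the most abundant with MTND2P28, was at 1672, 2287 and 1728 TPM in Control, with A2ko at 1670.4, A8ko at 1423 and the C9ko libraries at 1699.5 and 1418. MTND2P28 was at 1256, 1537 and 1279 TPM in Control, with A2ko at 1094, A8ko at 1484 and the C9ko libraries at 1227 and 1123. MTCO1P12 was at 410.2, 441 and 379.6 TPM in Control, with A2ko at 432, A8ko at 344 and the C9ko libraries at 331 and 376. C9ko overlapped with Control for MTATP6P1 and lay below it for the other two, and the C9ko differences of -0.27, -0.20 and -0.21 were not called. The smaller copies MTCO3P12, MTCO2P12, MTND4P12 and MTND1P23 had means of 28.0, 12.5, 9.31 and 7.08 TPM in Control. MTCO3P12 was called lower in C9ko at -0.64, as was MTND6P4, which was under 5 TPM, at -0.83 (limma adjusted p 0.0472 and 0.0405). Adding the copies to the mitochondrial share changed the C9ko difference from -5.43 to -5.49 percentage points.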

How the data were processed

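RNA sequencing of CAL27 cells was analysed from 9 deposited files, 1 per sample. The authors deposited TPM per Ensembl gene identifier, with 78894 identifiers in each file. The build hg38 is named in the submitters' processing notes. The aligner, quantifier, annotation and use of strand are not given in the sources used here, and TPM keeps no depth. Identical A2ko files and identical A8ko files each counted as 1 library, so 7 distinct libraries were used. The TPM of A2ko summed to 1000129.8 and that of the others to 1000000.0. Both A2ko files carry the heading A2B and both A8ko files A8B.

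The members and lists were chosen with earlier results of these data known. Symbols were found for 61463 identifiers, and positions and sequences came from GENCODE release 29 on GRCh38, which holds 57342 of them and all 37 members. The tests took the 17100 genes that reached 1 TPM in 2 or more distinct libraries, and all 37 members passed. Values were log2(TPM + 1), and fold changes on that scale understate those of low genes. limma 3.58.1 in R 4.3.3 (lmFit, eBayes with trend) fitted all 4 groups for C9ko against Control, and 1 value per knockout group for all knockouts against Control, with p-values adjusted by Benjamini-Hochberg over the 17100 genes and calls at an adjusted p under 0.05. Summed levels were compared by two-sided exact permutation tests, adjusted over 4 measures. A2ko and A8ko were described by genes outside the Control range and at least 0.25 log2 units from the Control mean. Both limma fits were run on simulated data with the spread of Control, in which a small set of genes shifted alike in every knockout. That simulation lacks the spread between knockout groups and the many changed genes of these data. It therefore does not give the error rates here.

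All 37 members are described, and nuclear genes were named as up to 4 called genes per list by size, with POLRMT, TFAM, TFB2M, LRPPRC and SLIRP added, and nuclear copies as those with a mean of at least 5 TPM. Nothing in the labels says that samples of a group came from separate cultures, so p-values measure only the spread between these samples. Alternatives were other pseudocounts, filters, scalings, sets of libraries and fits. The files of the second A2ko and A8ko samples were left out as separate libraries except in 1 alternative.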

Additional observations from a re-analysis of the deposited data

Results flagged for a closer look

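For some results A2ko lay above every Control library and another knockout below every one, and the difference between the knockouts was not tested because A2ko and A8ko have 1 distinct library each. A2ko was above and C9ko below for both ribosomal RNAs, with gaps on the log2(TPM + 1) scale of 1.4563 for MT-RNR2 and 1.2506 for MT-RNR1. The log2 ratio of ribosomal to messenger TPM showed the same, with a gap of 1.0582. Among transfer RNAs the gaps were 1.7953 for MT-TF, 1.4403 for MT-TW, 1.1256 for MT-TI, 0.7486 for MT-TG and 0.5851 for MT-TL1. For MT-TF the gap was nearly all the fall in C9ko, as A2ko was at 110.3 TPM and the highest Control library at 109.9. A2ko was also only just above Control for MT-TG, at 478 against 471 TPM. All 3 complex IV messengers were on this list, with gaps of 0.6141 for MT-CO2, 0.3993 for MT-CO3 and 0.3970 for MT-CO1. For MT-CO3, A2ko was at 43870 TPM and the highest Control library at 43266. A2ko was above and A8ko below for the transfer RNAs MT-TP, MT-TD and MT-TS1, with gaps of 1.1906, 0.8331 and 0.5112. For each result only the pair of knockouts with the widest gap is given. Both C9ko libraries were also below every Control library for MT-TP and MT-TD. A8ko was also below every one for MT-RNR2, MT-TF, MT-TW, MT-TI, MT-TG, MT-TL1, MT-CO1 and MT-CO2. A2ko lay above all Control libraries for 50.4% of all genes tested, both C9ko libraries below them for 16.4% and A8ko below them for 26.4%. The share of all genes with A2ko above and another knockout below was not counted.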

How the results depend on the processing

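Over the alternatives, the number of mitochondrial genes called in C9ko went from 16 to 33, against 25, and that of transfer RNAs from 16 to 21, against 20. All called members were lower under every one. Leaving aside the scaling by messenger rows, 17 of the 25 were called under every alternative, 16 transfer RNAs and 1 ribosomal RNA. With messenger rows scaled equal 16 members, 0 messengers and 0 ribosomal RNAs were called. With no filter on low values, a setting that tests more genes, 0 messengers and 1 ribosomal RNA were called. What part the number of genes has in this was not tested. With a mean of at least 5 TPM 6 messengers were called. All 9 files as separate libraries gave 10 messengers, and 1 member in all knockouts against Control. That setting counts identical files as replicates, and it also moved the exact permutation p of the MT-ND6 share (-0.106) and of the transfer to messenger ratio (-0.315) to 0.0238. Leaving out 1 library gave 0 to 3 messengers in C9ko, 0 without Control 3 or C9ko 2. In all knockouts against Control it gave 0 to 9 members, and the knockout average 18. The A2ko count was 2 at a difference of at least 0.5 and 0 at 1, and 10 to 15 when 1 Control library was left out. The A8ko count was 7 and 0 at those differences, 8 with messenger rows scaled equal, and 26 whichever Control library was left out.

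The ribosomal to messenger ratio went from -0.11, without A2ko, to 0.42, without C9ko. With messenger rows scaled equal the C9ko difference turned to 0.0416 for MT-ND2, 0.114 for MT-CO1, 0.0629 for MT-ND3, 0.0383 for MT-ATP6, 0.0813 for MT-CO3 and 0.243 for MT-TS1. When 1 library was left out, MT-ND3 went from -0.44 to 0.0257, without Control 2, and MT-TS1 from -0.28 to 0.135, without C9ko 2. Equal messenger sums centre the messenger differences near 0 by design, so the messengers that turned under that scaling are no separate result. None of these differences was called in either setting. The cause was not tested for MT-TS1 or for the turns when a library was left out. For single genes in C9ko, 527 values kept direction and call, 41 lost the call, 16 gained it and 8 turned. The C9ko share of TPM differed by -6.61 to -4.22 points when 1 library was left out, and by -8.14 when the 426 most abundant nuclear genes were left out of the total. That of all knockouts went from -4.64, without A2ko, to -1.56, without C9ko, and was -1.64 without Control 2. The transfer to messenger ratio was -0.19 without C9ko.

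Control and C9ko share the replicate numbers 1 and 2 and, in the file headings, the letters A and B. The letter B is on Control 2, C9ko 2, A2ko and A8ko. No label ties a number or letter to a day or batch. The deviations of Control and C9ko correlated at -0.0372 across 17100 genes, so no strong effect shared by number was seen. That single value cannot exclude a shared day or batch. A replicate block left 21 members called, with 19 transfer and 0 messenger RNAs. Depth is unknown, so how much of the spread of low rows such as MT-TW is counting error cannot be said.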

Other observations

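Within the messengers, shares that do not depend on nuclear RNA were also listed gene by gene, with no test. MT-CO3, a complex IV subunit, took 18.4%, 17.7% and 17.3% of the messenger TPM in Control, with A2ko at 19.3%, A8ko at 20.4% and the C9ko libraries at 18.9% and 18.7%, so that every knockout library was above Control. MT-ND5, a complex I subunit, took 1.45% to 1.56% in Control and 1.35% to 1.43% in the knockouts, so that every knockout library was below. These genes are named because Control and the knockouts did not overlap in their shares. MT-ND6, given above, was the only other messenger without overlap, and its share was lower in every knockout library. For each remaining messenger the ranges of Control and the knockouts overlapped. All are shares of the same total, so they do not move independently. How often such separation arises by chance was not tested. The log2 ratio of the large to the small ribosomal RNA was 1.91 to 2.15 in Control, with A2ko at 2.32, A8ko at 2.05 and the C9ko libraries at 2.02 and 2.22. The log2 ratio of transfer to ribosomal TPM was 1.92 to 2.04 in Control, with A2ko at 1.12, A8ko at 1.67 and the C9ko libraries at 1.83 and 1.79, with A2ko the lowest.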
